A study of Mus musculus with 2 samples.

Results

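The genes of actin, tubulin, myosin, their motor proteins and the other main proteins of the cytoskeleton were compared between mouse morulae injected with LIF-siRNA and morulae injected with a scrambled siRNA. The members were chosen by name alone, as the gene spots whose name begins with actin, tubulin, myosin, kinesin, dynein, dynactin, tropomyosin, troponin, cofilin, profilin, actinin or another of a fixed set of such words. They were 104 of the 8735 gene spots of the array, and carried 97 of its 6113 gene names. The choice by name also took in 3 ankyrin-repeat proteins, a chromatin subunit (actin-like 6) and a protein kinase that binds microtubules. Beta-actin, vimentin, talin, filamin, spectrin, stathmin and thymosin were found under no name and are not analysed here.

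Leukemia inhibitory factor (LIF) is a secreted cytokine, and a small interfering RNA (siRNA) lowers the transcript that it matches. By the labels, zygotes of B6CBF1 mice were injected at the stage of both pronuclei with 1.0 fmol of either siRNA, and whole embryos of 4 days were taken. The design text names the morula stage. On each of 2 cDNA arrays RNA of LIF-siRNA-treated embryos was labeled with Cy5, RNA of embryos given the scrambled sequence was labeled with Cy3, and the dyes were never exchanged. Each group was a pool of embryos, and both groups went through the same mating, injection and culture. In the study fewer embryos reached the morula with LIF-siRNA than with scrambled siRNA. A difference in stage between the pools was not tested. The dose differs between the labels and the study's methods, and 1 description among the labels names untreated stem cells, so that groups were taken from the sample titles, the source of each RNA and its dye. No spot was named for LIF, so the knockdown itself was not measured. A dye effect on a single probe and an effect of the siRNA cannot be told apart, and in pooled RNA neither can fewer cells of a type and less RNA per cell. Nothing states that the arrays held separate pools, so the SD between them may be technical.

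Actin polymerizes into filaments that form the cell cortex, and myosins pull on them. In a mouse embryo the contractile cortex drives compaction of the morula and the shaping of the outer, polarized cells. Tubulin forms the microtubules of the mitotic spindle and of intracellular transport, along which kinesins and dyneins carry their loads.

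Ratios are given as the log2 of LIF-siRNA over scrambled siRNA, so that a negative value is a lower level in the LIF-siRNA-treated embryos. Signals are background-subtracted and dye-normalized intensities. A gene was a down-expression gene when the geometric mean ratio of the arrays was below 0.5, and an up-expression gene when it was above 2, with a mean signal above 1000 in either dye. Of the 104 spots, 48 were past the signal threshold. Among these 48 there were 10 down-expression genes (20.8%) and 0 up-expression genes, against 5.42% and 5.33% of the 3527 gene spots of the array past the same threshold. The 10 were 4 actins, tubulin beta 5, transgelin 2, 2 myosins, a kinesin and an axonemal dynein heavy chain. These criteria use no test.

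In the test of the log2 ratio against 0 by limma, 100 members were well above background in at least 1 dye on both arrays and were tested. With Benjamini-Hochberg adjustment over the 8079 probes tested, 0 of the 100 members had an adjusted p under 0.05, as did 0% of all probes. The smallest adjusted p of a member was 0.058. At an unadjusted p under 0.05 there were 38 of the 100 members, against 30.7% of all probes, and the methods' t-test found 0 members after adjustment and 11 of 100 before it, against 865 of 8079 probes. The limma count depended on the processing. It was 6 of 100 with normexp background correction and loess (1.83% of all probes) and 22 with the variance tied to intensity (14.02% of all probes). No member is therefore said below to have risen or fallen, and values are given instead.

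The members lay on both sides of 0. The median of their log2 ratios was 0.040, with 0.049 for array 1 and -0.10 for array 2, beside -0.004 over all probes tested. Of the 100 members, 40 were lower on both arrays (36.8% of all probes), 36 were higher on both (36.7% of all probes) and 24 changed sign. The members past 2-fold on both arrays lay on the lower side, where there were 13 (3.03% of all probes), and there were 0 on the higher side (2.78% of all probes). Among the 48 past the signal threshold 23 were lower on both arrays (39% of all gene spots past it) and 15 were higher on both (39.8%), with a median of -0.11. The median SD between the arrays was 0.209 for the members and 0.249 for all probes. The ratios of the members had a Pearson r of 0.659 between the arrays, which is a correlation across genes of the same 2 hybridizations, against 0.639 for all probes.

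**Figure D1:**
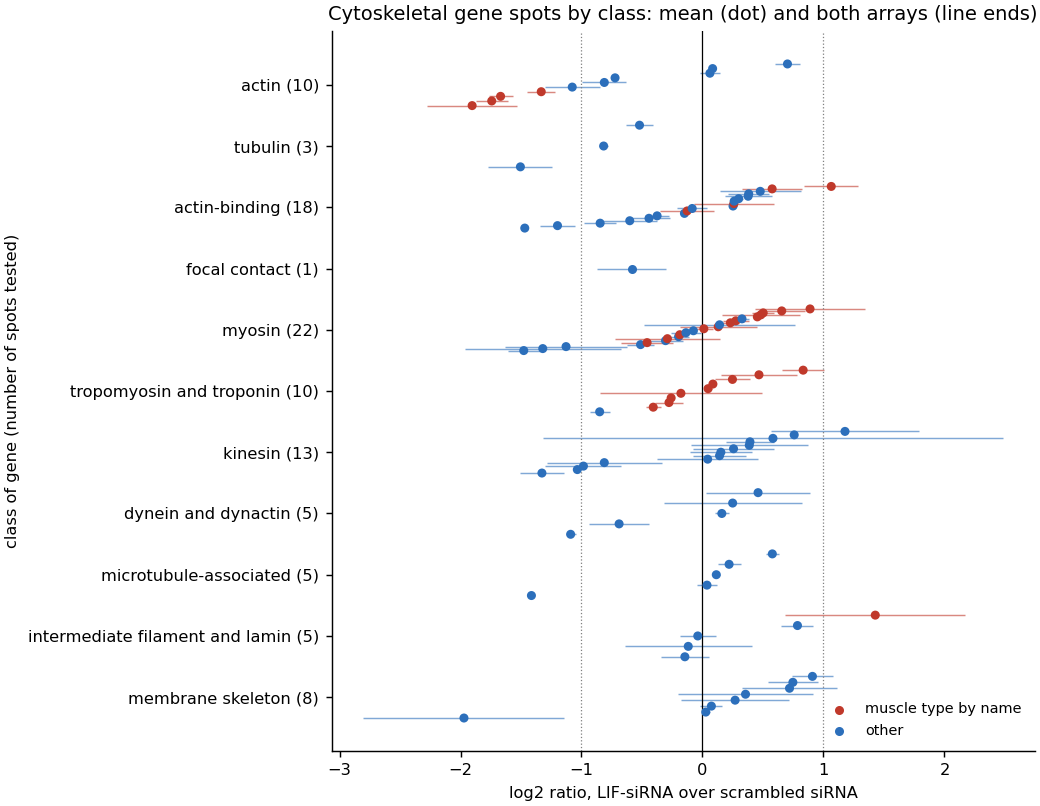
Log2 ratio of LIF-siRNA over scrambled siRNA for the 100 spots tested, in rows by class. Each dot is the mean of both arrays, the ends of its line are the arrays, red marks genes of muscle type by name, and dotted lines mark 2-fold. The 4 muscle-type actins and tubulin beta 5 lie beyond 2-fold on the lower side, while most other muscle-type genes lie between 0 and 1.

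Actins are nearly identical proteins encoded by separate genes. The gamma isoform of the cytoplasm serves every cell, and the alpha and gamma 2 isoforms serve skeletal, cardiac and smooth muscle. All 5 isoform spots were lower in the LIF-siRNA-treated embryos on both arrays (100%, against 36.8% of all probes). Their median log2 ratio was -1.67. For cardiac alpha actin the signal was 477 with LIF-siRNA against 1382 with scrambled siRNA on array 1, and 401 against 1939 on array 2. The log2 ratio was -1.90 ± 0.52 (SD, n = 2), 3.74-fold lower, and the lowest of all members past the signal threshold. For smooth muscle alpha 2 actin the signals were 1088 against 3322 on array 1 and 1228 against 4501 on array 2 (-1.74 ± 0.19). Enteric smooth muscle gamma 2 actin gave 875 against 2596 and 1052 against 3585 (-1.67 ± 0.14). Each of these spots was thus brighter in the scrambled-siRNA dye on both arrays. Skeletal alpha 1 actin gave 1689 against 3928 and 1785 against 4869 (-1.33 ± 0.16). Cytoplasmic gamma actin, the brightest spot of the members, gave 16972 against 26251 and 15317 against 30500. Its log2 ratio was -0.81 ± 0.26, 1.75-fold lower and short of the 2-fold criterion. The limma adjusted p was 0.058 for the smooth muscle alpha 2 and gamma 2 actins, 0.059 for cardiac, 0.061 for skeletal and 0.10 for cytoplasmic gamma actin.

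These spots are cDNA clones, and transcripts of one actin gene can bind the clone of another, so which isoform each spot measured is uncertain. Counting the 5 spots as 1 gene left 7 down-expression genes. Markers of muscle cells were mostly too dim to compare with the muscle actins. A list of muscle markers other than contractile proteins had 10 spots, among them myoglobin, myogenic differentiation 1 and calsequestrin 1. Only 1 was past the signal threshold. It did not meet the criteria, which 5.42% and 5.33% of all such spots did on the lower and higher side. Of the 10 spots 0 were lower (against 36.8% of all probes) and 2 higher on both arrays (20%, against 36.7%). Mixed signs were found for 8, and the median log2 ratio of the 10 was -0.001. The summed signals of the 10 were 3013 and 3663 with LIF-siRNA, and 3703 and 3195 with scrambled siRNA, so that the groups overlapped. The part of muscle cells in the actin values was not tested.

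The 150 bases before the annotated gene start are shown for the actin genes with an entry in RefSeq (build GRCm38.p6), because the actin spots lay together on the lower side. Capitals mark the CArG box, the element bound by serum response factor (the bases CC, 6 of A or T, then GG, which reads the same way on both strands). The sequences run 5′ to 3′ in the direction of the gene.
Skeletal alpha 1 actin (Acta1), chr8:123894776-123894925, minus strand: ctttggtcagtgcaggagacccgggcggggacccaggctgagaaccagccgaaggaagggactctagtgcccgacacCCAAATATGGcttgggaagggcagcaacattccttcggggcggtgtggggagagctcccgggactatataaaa
Cardiac alpha actin (Actc1), chr2:114052876-114053025, minus strand: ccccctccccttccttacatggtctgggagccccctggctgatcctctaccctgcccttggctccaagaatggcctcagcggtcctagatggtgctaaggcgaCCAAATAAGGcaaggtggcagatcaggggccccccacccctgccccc
Cytoplasmic gamma actin (Actg1), chr11:120348496-120348645, minus strand: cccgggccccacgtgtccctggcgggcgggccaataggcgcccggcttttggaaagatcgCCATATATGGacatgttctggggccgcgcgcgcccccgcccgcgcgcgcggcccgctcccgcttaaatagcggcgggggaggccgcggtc
Smooth muscle alpha 2 actin (Acta2), chr19:34255374-34255523, minus strand: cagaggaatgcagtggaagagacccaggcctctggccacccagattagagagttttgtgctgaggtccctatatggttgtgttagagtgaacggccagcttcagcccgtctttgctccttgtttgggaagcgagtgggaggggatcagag
An exact CArG box lay in the 250 bases before the start of 3 of the 4 actin isoform genes with an entry. Its first base was at -73 in Acta1, -47 in Actc1 and -90 in Actg1, counted from the start. The gamma 2 gene Actg2 had no entry. The exact pattern misses near matches. The Acta2 bases hold ccctatatgg and ccttgtttgg, each with 1 base other than A or T among the middle 6. The search therefore does not show that Acta2 lacks the element. Of the 77 member genes with an entry 5 had an exact box (6.49%), the others being vinculin and the nonmuscle myosin light chain. Over all genes with an entry it was 439 of 27025 (1.62%). Of the 32851 promoter windows 1.47% held one. The spots of these last 2 genes lay closer to 0 than the muscle actins, at -0.59 ± 0.40 for vinculin and at -0.31 and -0.20 for the light chain. A match is a description of the sequence only.

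**Figure D2:**
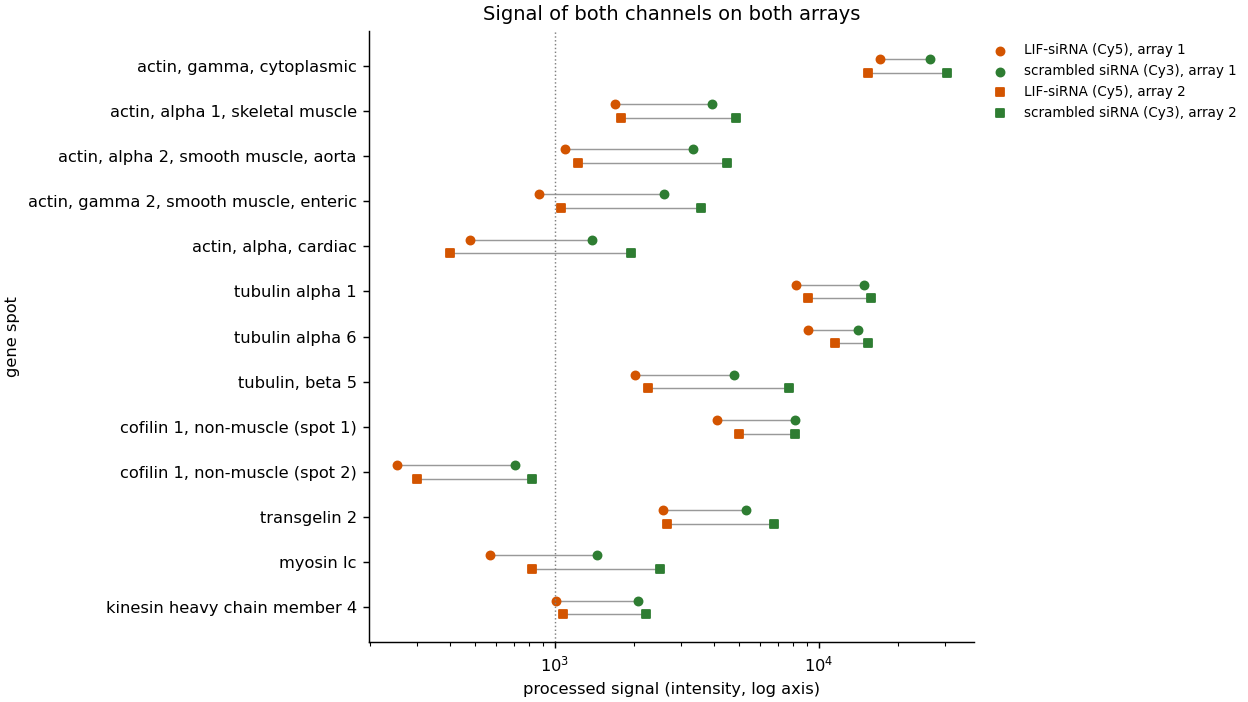
Processed signal (intensity, log axis) of 13 spots in both dyes on both arrays. Orange is LIF-siRNA (Cy5), green is scrambled siRNA (Cy3), circles are array 1, squares are array 2, and the dotted line is the signal threshold of 1000. The spots were picked among members that were lower on both arrays. The green symbol therefore lies to the right of the orange symbol for each of them by choice.

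The other proteins of the actin family were divided. The Arp2/3 complex starts new actin branches. Its subunit 1A had signals of 5668 against 3242 and 5812 against 3837 (0.70 ± 0.15), higher with LIF-siRNA on both arrays, whereas its subunit 3 lay at 0.06 ± 0.12. Actin-related protein 11 homolog, a part of dynactin, lay at 0.08 ± 0.01. Actin-like 7b, a protein of the testis, lay at -0.72 ± 0.01 with signals between 108 and 232, and actin-like 6 at -1.08 ± 0.32 with signals between 95.8 and 236. Both were lower on both arrays at signals under the threshold.

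Of the 18 spots for actin-binding proteins 12 were past the signal threshold, with 1 down-expression (8.33%, near the 5.42% of all such spots) and 0 up-expression genes. Transgelin 2, a relative of a smooth muscle protein that binds actin, had signals of 2563 against 5308 and 2659 against 6760 (-1.20 ± 0.21). Cofilin 1 severs and recycles actin filaments and had 2 spots, which belong to different clusters in the annotation of the array. The brighter spot gave 4108 against 8108 and 4978 against 8148 (-0.85 ± 0.19). The dimmer spot gave 252 against 708 and 301 against 823 (-1.47 ± 0.03). Both were lower on both arrays, with a difference of 0.62 in log2 ratio, and neither met the criteria, the first for its ratio and the second for its signal. Profilin 1, which supplies actin monomers, lay at -0.44 ± 0.24 and profilin 2 at -0.38 ± 0.14.

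Of 4 spots for proteins that cap the growing end of actin filaments 3 were higher on both arrays (75%, against 36.7% of all probes) and 1 was mixed. Gelsolin was at 0.48 ± 0.47, capping protein beta 1 at 0.38 ± 0.28 and the gelsolin-like capping protein at 0.30 ± 0.05. Capping protein alpha 2 was at -0.085 ± 0.17, with 0.04 on array 1 and -0.21 on array 2. The 4 spots had a median of 0.34, none of them at an unadjusted limma p under 0.05. Coronin 1A lay at 0.26 ± 0.04 and coronin 1B at -0.60 ± 0.32. The crosslinking proteins did not share a direction, since alpha actinin 4 lay at 0.25 in 1 spot and -0.15 in the other, actin-crosslinking protein 7 at 0.38 ± 0.24 and actinin alpha 3 at 1.06 ± 0.31. Actinin alpha 3, of fast muscle fibers, had signals of only 200 against 112 and 276 against 113. Transgelin lay at 0.58 ± 0.35, cofilin 2 of muscle at -0.13 ± 0.31 and the LIM protein associated with actinin alpha 2 at 0.26 ± 0.47, all with signals of 257 or less. Vinculin, which joins actin to adhesion sites, lay at -0.59 ± 0.40 (-0.31 under normexp and loess) with signals between 64.8 and 119.

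Myosins numbered 22 spots, of which 9 were past the signal threshold, with 2 down-expression (22.2%) and 0 up-expression genes, against 5.42% and 5.33% of all such spots. The 10 nonmuscle spots had a median log2 ratio of -0.25, with 8 lower (80%, against 36.8% of all probes) and 1 higher on both arrays. The 12 muscle spots had a median of 0.25, with 2 lower and 7 higher on both arrays (58.3%, against 36.7% of all probes). Of the 3 muscle spots past the signal threshold 1 was lower on both arrays, 0 were higher and 2 had mixed signs, with a median of -0.29. The type was assigned from the names, and the difference between the types was not tested. Myosin Ic, a single-headed motor that links actin to membranes, gave 568 against 1445 and 818 against 2496 (-1.48 ± 0.19). Myosin Vb, which carries recycling endosomes, gave 597 against 920 and 401 against 1242. Array 1 put its log2 ratio at -0.62 and array 2 at -1.63 (-1.13 ± 0.71), so that its call rested on array 2. Myosin IXb was alike, with -0.67 and -1.97 (-1.32 ± 0.91), at signals under the threshold.

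Myosin X lay at -0.51 ± 0.15, myosin VI at -0.14 and -0.08 in its 2 spots, myosin VIIa at 0.14 ± 0.88 and myosin Ib at 0.33 ± 0.08. The nonmuscle alkali light chain, a subunit of the myosin of the cell cortex, lay at -0.31 and -0.20 in its 2 spots. The brightest of the muscle type was the light chain of cardiac atria, an isoform also made in embryos, with 10963 against 12973 and 9463 against 15086 (-0.46 ± 0.30). The phosphorylatable light chain of fast muscle lay at 0.01 ± 0.10 and the fetal cardiac heavy chain at -0.29 ± 0.62. The other 9 ranged from -0.19 for the alkali light chain of fast muscle to 0.89 ± 0.64 for the embryonic skeletal heavy chain, whose signals were 612 against 453 and 442 against 174.

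Tropomyosin lines actin filaments, and troponin makes their use in striated muscle depend on calcium. Of their 10 spots 2 were past the signal threshold and 0 met the criteria, against 5.42% and 5.33% of all such spots on the lower and higher side. Tropomyosin 5 was bright and lower on both arrays, with 6889 against 13138 and 7370 against 12555 (-0.85 ± 0.12), the lowest ratio past the signal threshold that missed the criteria. Tropomyosin 2 of muscle lay at 0.49 on array 1 and -0.85 on array 2. The 8 troponin spots had a median of 0.07, 3 of them lower (37.5%, against 36.8% of all probes) and 5 higher on both arrays (62.5%, against 36.7%), and 7 of them had signals under the threshold. The bright one was a spot for fast troponin I, with 10377 against 5178 and 6120 against 3870 (0.83 ± 0.24), the highest mean ratio among the members past the signal threshold. A second spot of that name lay at -0.26 ± 0.03. The signals of these spots differed 62.7-fold and the annotation puts them in different clusters, so that they need not measure the same transcript.

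Muscle-type genes other than actins were 26 spots with a median log2 ratio of 0.24. Of these 15 were higher (57.7%, against 36.7% of all probes) and 5 lower on both arrays (19.2%, against 36.8%). Only 4 were past the signal threshold and 0 met the criteria. Of all spots past the threshold 5.42% and 5.33% did so on the lower and higher side, so 0 of 4 is near that share. Their difference from the actins was not tested. The 4 spots past the signal threshold went both ways, with 1 lower and 1 higher on both arrays, 2 of mixed sign and a median of -0.14.

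**Figure D3:**
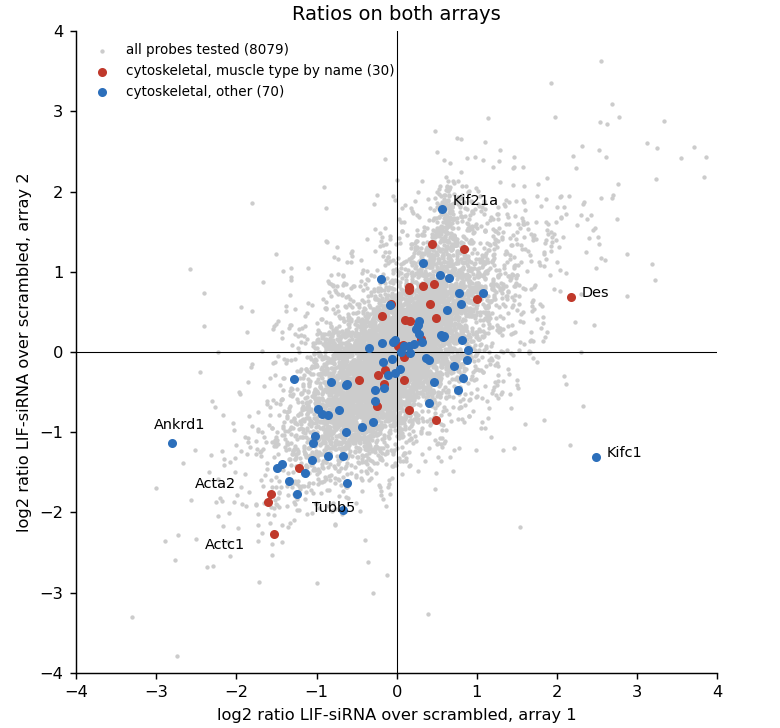
Log2 ratio on array 1 against array 2 for the 8079 probes tested (grey), the 30 members of muscle type (red) and the 70 other members (blue). The muscle actins, tubulin beta 5 and the ankyrin-like repeat protein lie at the lower left, and kinesin family member C1 lies at 2.48 on array 1 and -1.32 on array 2.

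All 3 tubulin spots with a signal above background were lower in the LIF-siRNA-treated embryos on both arrays (100%, against 36.8% of all probes). Tubulin beta 5, the beta subunit of most dividing cells, gave 2018 against 4767 and 2253 against 7684 (-1.50 ± 0.37, 2.84-fold lower, limma adjusted p of 0.061). Tubulin alpha 1 gave 8179 against 14761 and 9126 against 15693 (-0.82 ± 0.05). Tubulin alpha 6 gave 9095 against 14059 and 11500 against 15308 (-0.52 ± 0.15). Both alpha tubulins were bright and short of 2-fold, and the annotation assigns them to the same cluster, so that they cannot be counted as separate genes. Tubulin beta 4 was not well above background in any channel.

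Kinesins move along microtubules and had 16 spots, of which 13 were tested and 6 were past the signal threshold, with 1 down-expression (16.7%) and 0 up-expression genes, against 5.42% and 5.33% of all such spots. Kinesin heavy chain member 4, which binds chromosomes in mitosis, gave 1013 against 2057 and 1076 against 2224 (-1.03 ± 0.02), just past the limit for the ratio. Kinesin-associated protein 3 and kinesin light chain 1 are cargo-binding subunits without motor activity. The first gave 151 against 333 and 141 against 401 (-1.33 ± 0.26) and the second 368 against 585 and 311 against 765 (-0.98 ± 0.44), both lower on both arrays at signals under the threshold. Kinesin-like 1, a mitotic motor that pushes the spindle poles apart, lay at 0.39 ± 0.28.

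Kinesin family member C1, a spindle motor that walks toward the minus end, was the least repeatable member. Its signals were 6022 with LIF-siRNA against 1079 on array 1, and 1305 against 3249 on array 2. Its log2 ratio was thus 2.48 on the first and -1.32 on the second, a gap wider than that of 99.99% of the probes tested. Its mean of 0.58 describes neither array. Kinesin family member 5B, a transport motor, had 2 bright spots. The first gave 13870 against 8069 and 12828 against 7708 (0.76 ± 0.03), and the second 14299 against 10381 and 9764 against 12675 (0.04 ± 0.59). These spots of 1 name and 1 cluster therefore differed by 0.72 on the log2 scale, and the second had opposite signs on the arrays (0.46 and -0.38). Kinesin family member 3b lay at 0.39 ± 0.69 in its measurable spot, kinesin heavy chain member 2 at 0.15 ± 0.36, and 3c, a motor of neurons, at -0.81 ± 0.67. Kinesin family member 21A, also of neurons, lay at 0.57 and 1.79 (1.18 ± 0.86) at signals under the threshold, and members 5A and C2 at 0.14 ± 0.31 and 0.26 ± 0.47. Member 21B, heavy chain member 1A and the other spot of 3b were too dim to be tested.

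Dynein moves toward the minus end of microtubules, in the cytoplasm with its activator dynactin and in cilia as the axonemal form. Axonemal heavy chain 11 was a down-expression gene, with 4204 against 8700 and 4436 against 9713 (-1.09 ± 0.06). The axonemal light chain 4 was on the other side, at 0.89 on array 1 and 0.03 on array 2. Dynactin 1, the subunit that binds microtubules, gave 1435 against 1944 and 1470 against 2822 (-0.69 ± 0.36), dynactin 3 lay at 0.16 ± 0.08 and the cytoplasmic intermediate chain 1 at 0.25 ± 0.81.

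Of the 5 microtubule-associated proteins 2 were past the signal threshold and 0 met the criteria, which 5.42% and 5.33% of all such spots did on the lower and higher side. The brightest, member 1 of the RP/EB family, binds growing microtubule ends and gave 14924 against 11993 and 13826 against 12684 (0.22 ± 0.14). The microtubule-associated testis-specific protein kinase gave 175 against 472 and 227 against 600 (-1.41 ± 0.02), lower on both arrays below the signal threshold. Proteins 6 and 7 and tau lay at 0.58 ± 0.07, 0.04 ± 0.12 and 0.11 ± 0.05.

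Lamins line the inside of the nucleus, and desmin and the neurofilaments are intermediate filaments of muscle and neurons. Lamin B1 gave 2085 against 2371 and 2157 against 2002 (-0.04 ± 0.21) and lamin A lay at -0.15 ± 0.28, so that each had a different sign on each array. On the deposited ratios desmin had the highest mean of all members, 1.43 ± 1.05 (0.98 under normexp and loess, level with kinesin family member 21A), with 453 against 101 on array 1 and 332 against 206 on array 2. Its signals were under the threshold and its ratio fell short of 2-fold on array 2 (0.69). The medium neurofilament lay at 0.79 ± 0.19 (0.33 under normexp and loess) and the light one at -0.12 ± 0.74.

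Ankyrins and the band proteins fasten the cortex to the membrane. Their class by name also took in the 3 proteins that only share the ankyrin repeat. It was dim, with 1 of 8 spots past the signal threshold. The ankyrin-like repeat protein had the lowest mean ratio of all members, -1.97 ± 1.17, from signals of 37.3 against 260 and 151 against 334, so that array 1 gave most of its size. Under normexp and loess it was -1.10, less low than cardiac alpha actin at -1.67. Ankyrin 3 lay at 0.72 ± 0.56, the SOCS box protein 1 with ankyrin repeats at 0.75 ± 0.30 and the ankyrin repeat protein with a zinc finger at 0.07 ± 0.13. The band proteins of the erythrocyte membrane ranged from 0.03 to 0.91. The highest on the deposited ratios was band 4.2, whose control signal was well above background on 1 of the arrays only. Under normexp and loess band 4.2 lay at 0.25, below band 4.1-like 1 at 0.26.

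The edges of the criteria were as follows. Just inside were kinesin heavy chain member 4 at -1.03 and axonemal heavy chain 11 at -1.09, and just outside, among spots past the signal threshold, were tropomyosin 5 and the brighter cofilin 1 spot, both at -0.85. On the higher side the nearest was fast troponin I at 0.83. Among spots under the signal threshold 9 were past 2-fold in the mean, 6 lower (the ankyrin-like repeat protein, the dimmer cofilin 1, the testis-specific kinase, kinesin-associated protein 3, myosin IXb and actin-like 6) and 3 higher (actinin alpha 3, kinesin family member 21A and desmin). Under normexp and loess these 3 lay under 2-fold, at 0.64, 0.98 and 0.98. On the lower side the ankyrin-like repeat protein, the dimmer cofilin 1 and the testis-specific kinase then lay at -1.10, -1.18 and -1.07. The values of kinesin-associated protein 3, myosin IXb and actin-like 6 under it are not given here. The lower side is thus not shown to hold as a whole. The count of 0 up-expression genes depended on array 2, since on array 1 alone fast troponin I (1.00) and kinesin family member C1 (2.48) met the criteria, which gave 2 up-expression genes.

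**Figure D4:**
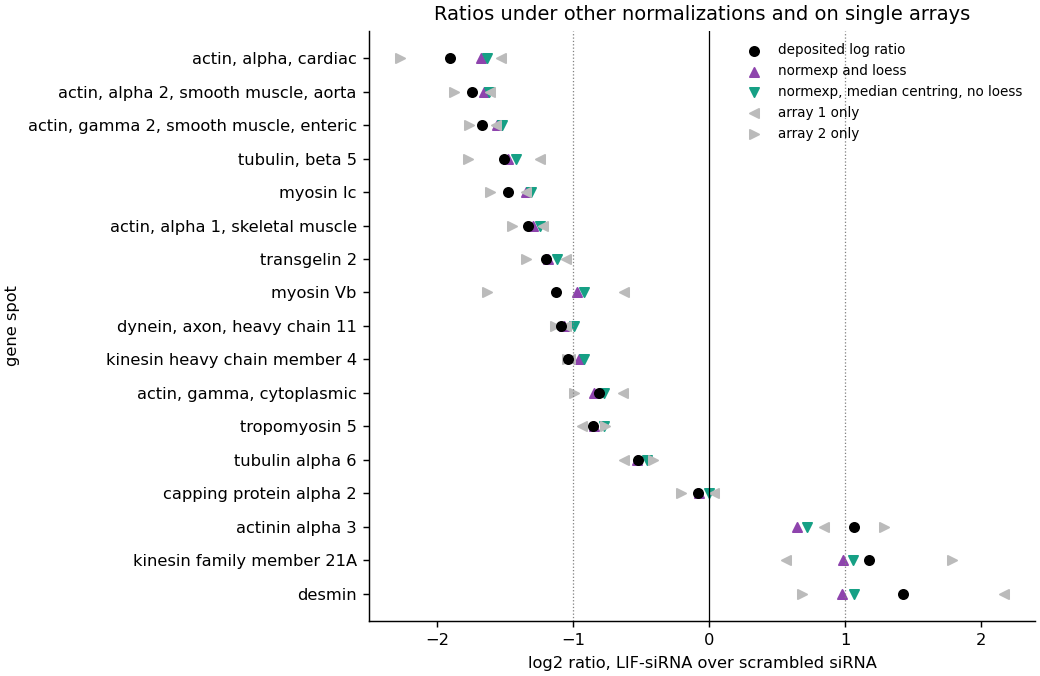
Log2 ratio of 17 members, with the 10 down-expression genes first, under the deposited normalization (black), normexp with loess (purple), normexp with median centring (green) and on either array alone (grey). The muscle actins, tubulin beta 5, myosin Ic and transgelin 2 stay beyond 2-fold (dotted line) under all of these, while myosin Vb, kinesin heavy chain member 4 and axonemal heavy chain 11 cross that line under at least 1.

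Other genes of the actin cortex were counted from a separate list of 31 spots, none of them a member. Of these, 15 were past the signal threshold, with 1 down-expression gene (6.67%, near the 5.42% of all such spots) and 0 up-expression genes. The 1 was villin 2 (ezrin), which joins actin to the membrane at the apical side of outer cells, with 1580 against 3885 and 2043 against 4952 (-1.29 ± 0.01). On both arrays 17 were lower (54.8%, against 36.8% of all probes) and 7 were higher (22.6%, against 36.7%), and the median was -0.32. Of 15 spots for other microtubule and centrosome genes 10 were past the signal threshold and 0 met the criteria, against 5.42% and 5.33% of all such spots on the lower and higher side. Of the 14 tested 4 were lower (28.6%, against 36.8% of all probes) and 8 higher on both arrays (57.1%, against 36.7%), with a median of 0.19. The 3 spots for other intermediate filament and nuclear envelope genes gave 0 genes past the criteria, with a median of 0.05. No list was tested against other genes.

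The RNA carried the markers of the embryo. Of 8 such spots 6 were past the signal threshold, including zinc finger protein 42, Pou5f1 and cadherin 1 (E-cadherin). The summed signals of the 8 were 51859 and 51835 with LIF-siRNA, and 49625 and 59813 with scrambled siRNA. The spot for zinc finger protein 42 weighs most in these sums. It gave 31231 and 28609 with LIF-siRNA, and 21414 and 25562 with scrambled siRNA. The median log2 ratio of the 8 was -0.53. Keratin 8, the filament protein of the outer cells, was lower with 1708 against 5679 and 2131 against 9530 (-1.95 ± 0.30), and Sox2, a factor of the inner cells, was lower at -2.35 ± 0.92. Under the signal threshold Gata6 lay at -1.27 ± 0.09 and the undifferentiated embryonic cell factor Utf1 at -0.95 ± 0.25. The other 4 lay closer to 0, at -0.11 ± 0.23 for Pou5f1, 0.14 ± 0.20 for eomesodermin, 0.35 ± 0.27 for zinc finger protein 42 and 0.47 ± 0.30 for cadherin 1. Markers of other cells were dim. Of 13 blood spots 1 was past the signal threshold (hemoglobin X, -1.29 ± 0.02), and their summed signals were 3410 and 3354 with LIF-siRNA and 5584 and 4954 with scrambled siRNA. Hemoglobin X carried that difference, and without it the sums were 1800 and 1933 with LIF-siRNA against 1605 and 1515. Of the 11 blood spots tested 6 were lower (54.5%, against 36.8% of all probes) and 4 higher on both arrays (36.4%, against 36.7%), with a median log2 ratio of -0.19 and a range from -1.29 to 1.10. Of 4 cumulus or granulosa cell spots 0 were past the threshold, with sums of 970 and 989 against 527 and 389. Of the 3 tested 2 were higher on both arrays (66.7%, against 36.7% of all probes). These were inhibin beta-B at 1.80 ± 0.26 and the pentaxin related gene at 1.17 ± 0.71. Tumor necrosis factor induced protein 6 lay at -0.20 ± 0.61. Of 2 oviduct spots 0 were past the threshold, with sums of 555 and 662 against 333 and 383. The part of other cells in the values above was not tested.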

How the data were processed

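Output of Agilent Feature Extraction (A.7.5.1 by the file headers) was deposited for both arrays. The deposited log10 ratio compares Cy5 with Cy3, was normalized by the authors' software with a rank-consistent lowess, and was converted to log2. The deposited intensity columns hold mean and background brightness and the processed signal, which the authors' software background-subtracted and dye-normalized. A deposited log2 table of the series holds brightness, not ratios, and was not used. Controls were left out, and so were 23 gene spots with an outlier mark, 0 of them members. The median signal over background was between 4.83 and 6.60 in the 4 channels, 0 gene spots were saturated, and precision is limited by having 2 arrays.

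The criteria (ratio 2 or 0.5, signal above 1000) follow the methods of the study. The log2 ratio was tested against 0 with limma 3.58.1 (lmFit with an intercept only, then eBayes, two-sided, in R 4.3.3) for probes that on both arrays were well above background in 1 dye or more. P-values were adjusted by Benjamini-Hochberg with 0.05 as the threshold. The fit was also run on simulated data whose variances came from this same fit. That run cannot speak to dye bias or to technical replication. Other steps used Python 3.11.15 and pandas 2.3.3. The named members were those past the criteria, the 8 highest and 8 lowest with 1 sign on both arrays, the brightest of each class, a few proteins fixed by name, and names with more than 1 spot. The remaining members are named to account for all of them. Classes, muscle type and 96 gene symbols were assigned from the names. The members and lists were chosen with earlier results of these data known, and 6 names that the words of a list matched by accident were left out of the lists.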

Additional observations from a re-analysis of the deposited data

How the results depend on the processing

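Under normexp with loess, the direction of the 42 named and tested members was unchanged. With normexp and median centring without loess, an alternative chosen after seeing the data, it was unchanged for 40 of 42, and lamin B1 and 1 myosin VI spot, both near 0, turned to 0.0103 and 0.0101. The count of 10 down-expression members was 8 and 7 under these (over all gene spots 191 became 163 and 145), 9 when both arrays had to pass, and between 9 and 11 with either array left out. It was 16 without the signal threshold and 16 with the well-above-background mark in its place, where up-expression members numbered 3 and 3 instead of 0. With either array left out up-expression members numbered between 0 and 2. The 0 members called by limma became 6 with normexp and loess, 28 with normexp and median centring, 8 with both dyes well above background on both arrays, 22 with an intensity trend and 16 among probes past the signal threshold only, and over all probes the counts were 148, 1687, 234, 1133 and 660. The 6 and the 8 both held the 4 muscle actins, myosin Ic and the dimmer cofilin 1 spot. The cause was not tested. The count stayed at 0 with outliers kept, without the filter on dim probes and with a t-test. With 1 array limma has no residual degrees of freedom, so it was not run. The median log2 ratio of the members was -0.11 among probes past the signal threshold, and between -0.10 and 0.049 with either array left out. Median centring of the deposited ratios changed nothing, as their medians were already 0. No paired analysis was possible because each log ratio is already the difference of both groups on 1 array, with no second group. The signal limits the 56 members that did not pass the signal threshold, and the lack of a dye swap limits all of them.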
